A study of Mus musculus with 18 samples.

Results

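The regions described here were the 2 ends of 18 mouse autosomes, all autosomes other than chromosome 12. The telomeric end of a chromosome was its last 10 Mb, and the centromeric end was the stretch from 3 to 13 Mb, chosen by position on the mm10 assembly and by no measured value. This gave 36 windows, 18 of each kind, covering 180 Mb for each kind, against 1929 Mb for the rest of the same chromosomes. Of 383109 fragment ends outside chromosome 12 that were listed in at least 1 library, 30561 were telomeric, 28983 were centromeric and 294145 lay in the rest of the 18 autosomes. The remainder were on the sex chromosomes and the mitochondrial genome, and the whole series listed 440025 ends.

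The data were circular chromosome conformation capture (4C-seq) libraries, which count the DNA fragments joined to 1 chosen bait. The bait lay in Eμ, an enhancer inside Igh, the antibody heavy chain locus on chromosome 12, and the cells were CD43-negative mature B cells from mouse spleen, WT or Med1 Mutant. Each genotype was measured resting (day 0), after 2 days with LPS and IL4, and after 2 days with LPS, with 3 libraries in each of the 6 groups. For 1 library, WT LPS + IL4 replicate 2, the growth protocol gives anti-CD40 and IL4 rather than LPS and IL4, and the tests of activation below were also run without that library. The titles of the 6 WT resting and LPS + IL4 libraries read WTKO while their genotype field reads WT; the field was followed, so every WT value and every genotype comparison of these libraries rests on it. Med1 is a subunit of Mediator, the complex that links enhancer-bound factors to RNA polymerase II. The labels used here give no age, strain, allele or Cre driver, nor whether replicates were separate animals, so the p-values measure the spread between these libraries, which may be technical.

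Mouse autosomes carry the centromere at the low-coordinate end, next to unsequenced satellite DNA, and the opposite arm ends in the telomere. In interphase nuclei centromeres gather in chromocenters and at the nuclear rim, while gene-rich subtelomeric DNA often lies further inside, and active gene-rich regions of different chromosomes tend to meet each other. Igh itself lies close to the telomeric end of chromosome 12. Contacts of a bait with other chromosomes are rare and spread thinly, so they are compared here as sums over large regions.

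A 4C fragment end begins at a cut site of DpnII, GATC, the first enzyme used. The RefSeq promoter table (GRCm38.p6, the patched release of mm10) held 1536 listed ends outside chromosome 12, and all 1536 lay directly beside a GATC in its sequence, which ties the listed positions to that build. Of these promoter ends 173 were telomeric and 96 were centromeric. Most were seen once: 130 of the 173 and 77 of the 96 were listed in 1 library. The 4 ends of each kind listed in the most libraries, 1 chromosome left aside, show what was counted. Each is written 5′ to 3′ from the cut site, with GATC in capitals and the 24 listed bases in lower case.
1700094M23Rik promoter, telomeric, chr3:153183252-153183275, minus strand, 18 libraries: GATCtcatggaggcatttccccgactga
Gm51824 promoter, telomeric, chr10:128660328-128660351, minus strand, 14 libraries: GATCtgatgccctcttctagtgggtctg
Gm36208 promoter, telomeric, chr10:122792683-122792706, plus strand, 8 libraries: GATCccattacaggtgcttgtgagccac
Rps26 promoter, telomeric, chr10:128626506-128626529, plus strand, 5 libraries: GATCcggcggcttgcccgacccgcttat
D17Ertd648e promoter, centromeric, chr17:11883412-11883435, plus strand, 16 libraries: GATCtccaagcatccagataagggtcac
Gm31639 promoter, centromeric, chr9:7255278-7255301, minus strand, 14 libraries: GATCtcgtagaggcacttccccaactga
D17Ertd648e promoter, second end, centromeric, chr17:11883358-11883381, minus strand, 8 libraries: GATCttgagccatagtggccatggattc
Dnajc4 promoter, centromeric, chr19:6992602-6992625, plus strand, 4 libraries: GATCcctcattgggggtagacgctcagg
The telomeric end at 1700094M23Rik on chromosome 3 and the centromeric end at Gm31639 on chromosome 9 carried the same base at 20 of 24 positions. The other 27 pairs among these 8 ends matched at 1 to 11 positions. Both look-alike ends were listed in 14 or more libraries, whereas the end at Rps26, which encodes a ribosomal protein, was listed in 5 libraries with 400 of its 645 reads in 1 of them. Of the 367 reads at the Gm31639 end, 353 came from 1 library. The labels name no molecular identifiers, so many reads at 1 end can be copies of 1 molecule.

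The 12 resting and LPS + IL4 libraries held 1159343 to 9358374 reads outside chromosome 12, and the 18 libraries held 38850 to 96399 covered ends there. The deepest was mutant LPS + IL4 replicate 2. Reads outside chromosome 12 made up 50.6% to 52.5% of all reads in the 6 resting libraries and 41.3% to 44.5% in the 6 LPS + IL4 libraries, so every share below is of the reads or ends outside chromosome 12. The LPS libraries were deposited apart from the others, with another aligner named, and list covered ends without counts.

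Counted as covered ends, the centromeric windows were denser than the telomeric ones in all 18 libraries. In WT resting libraries 8.27%, 8.54% and 8.49% of covered ends were centromeric and 6.45%, 6.61% and 6.80% were telomeric. In mutant resting libraries the centromeric shares were 8.50%, 8.36% and 8.09% and the telomeric shares 6.70%, 6.57% and 6.75%. The 2 ranges did not overlap in any group. The mean log2 ratio of telomeric over centromeric covered ends per Mb was -0.32 ± 0.09 (SD, n = 18 libraries), a ratio of 0.803, with a two-sided exact sign-flip permutation p of 7.6e-06 over libraries and an adjusted p of 2.3e-05 over 6 such ratios; 7.6e-06 is the smallest p that 18 libraries can give.

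Against the rest of the chromosomes the 2 ends differed in direction. Centromeric windows held more covered ends per Mb than the rest in 18 of 18 libraries (log2 ratio 0.24 ± 0.04, SD; exact permutation p = 7.6e-06, adjusted 2.3e-05). Telomeric windows held fewer in 16 of 18 (log2 ratio -0.08 ± 0.05, SD; exact permutation p = 3.8e-05, adjusted 7.6e-05). The telomeric deficit was small and turned to an excess in narrower windows: with ends of 5 Mb the mean log2 ratio was 0.11, and with 3 Mb it was 0.16. It also turned to 0.04 when ends listed in 10 or more libraries were left out.

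Counted as reads, the same 2 kinds of window gave another picture. Telomeric windows held 1.21 times the reads per Mb of the rest (log2 ratio 0.28 ± 0.09, SD, above 0 in 12 of 12 libraries; exact permutation p = 0.00049, adjusted 0.00059). Centromeric windows held 1.16 times as many (log2 ratio 0.22 ± 0.06, SD, 12 of 12; exact permutation p = 0.00049, adjusted 0.00059), where 0.00049 is the smallest p that 12 libraries allow. Telomeric over centromeric reads had a mean log2 ratio of 0.06 ± 0.13 (SD, n = 12), above 0 in 6 libraries and below it in 6, and did not pass the test (exact permutation p = 0.15). The 6 libraries below 0 were the resting ones and the 6 above were the LPS + IL4 ones.

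Few ends carried much of the centromeric read excess. The 196 centromeric ends listed in all 18 libraries were 0.676% of the centromeric ends and held 33.6% of the centromeric reads. The 118 telomeric ones held 15.7% of the telomeric reads, and the 1793 in the rest held 19.4%. Ends listed in 1 library held 52.8% of telomeric and 34.1% of centromeric reads. Without ends listed in 10 or more libraries the centromeric windows fell below the rest in reads per Mb (log2 ratio -0.16), and telomeric over centromeric reads rose to 0.58. Without the whole of chromosome 19 the centromeric excess over the rest was 0.08, and telomeric over centromeric was 0.23. The mappable length and the number of cut sites of each window were not measured here. Per listed end in place of per Mb, the telomeric over centromeric read ratio was -0.02. Listed ends are those seen in these same libraries, and 69.6% of telomeric and 60.2% of centromeric ones were listed in 1 library. Their number therefore cannot stand for the number of cut sites.

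**Figure D1:**
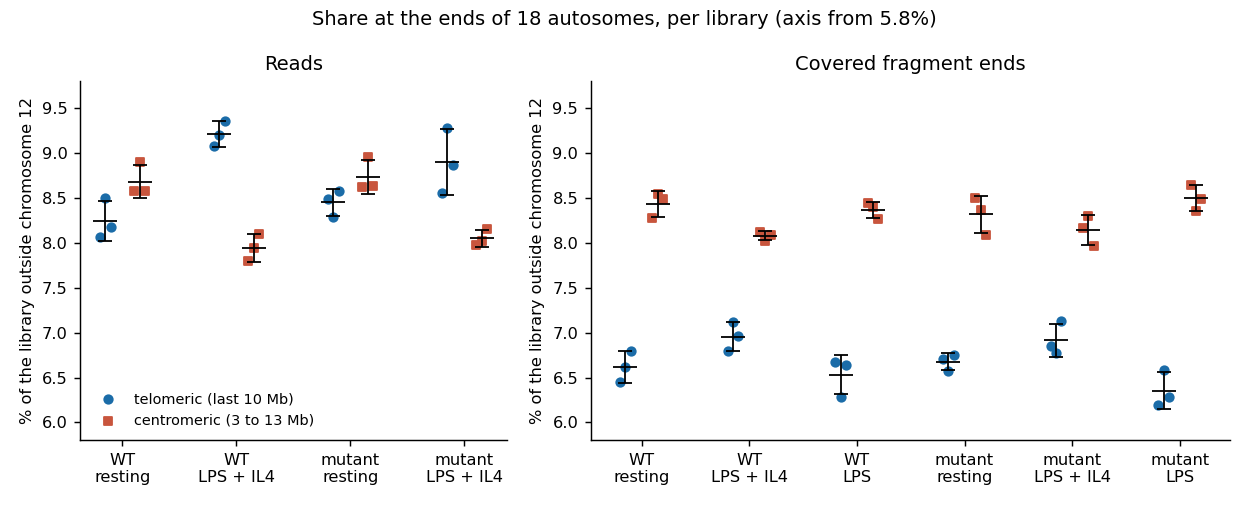
Share of reads (left, 12 libraries) and of covered fragment ends (right, 18 libraries) in the telomeric and centromeric windows, as a percentage of the library outside chromosome 12. Points are libraries and bars are mean and SD of 3, on an axis that starts at 5.8%; in covered ends the centromeric share is above the telomeric share in every library, while in reads the order changes between resting and LPS + IL4 cells.

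In covered ends the most distal telomeric megabase was the densest of its window. Summed over the 18 chromosomes, it held 25.3 ± 7.15 covered ends per Mb (SD, n = 18), the highest of the 10 telomeric megabases in 18 of 18 libraries. The density fell to 14.4 ± 4.40 in the megabase 9 to 10 Mb from the last base and to 13.6 ± 4.23 in the next one inward, outside the window. Further inward it rose again, to 21.0 ± 5.81 at 14 to 15 Mb and 21.5 ± 5.42 at 17 to 18 Mb. The SD includes the libraries' differences in the number of covered ends. Reads did not peak in the outermost megabase. It held 4.28% ± 0.46 of resting and 5.61% ± 0.64 of LPS + IL4 reads per 100 Mb (SD, n = 6 each). The third held 7.35% ± 0.55 and 8.17% ± 1.05. At 14 to 15 and 17 to 18 Mb the resting values were 5.66% ± 0.54 and 6.22% ± 0.63, and those after LPS + IL4 were 4.83% ± 0.59 and 4.75% ± 0.52. Protein-coding genes thinned out from 13.2 per Mb in the outermost megabase to 7.39 in the tenth and 4.44 in the next. They were back at 12.4 and 12.6 per Mb at 14 to 15 and 17 to 18 Mb.

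At the centromeric side the profile was flatter. The first 3 megabases of the window held 24.4, 24.2 and 24.1 covered ends per Mb, the tenth held 19.8, and the densest of the first 20 was 16 to 17 Mb from the window's start, at 26.5. Gene density at this side went from 10.3 per Mb in the first megabase to 3.83 in the seventh. The seventh megabase held 7.58% of resting reads per 100 Mb, the most of the 10, and 3.17% once ends listed in 10 or more libraries were left out.

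**Figure D2:**
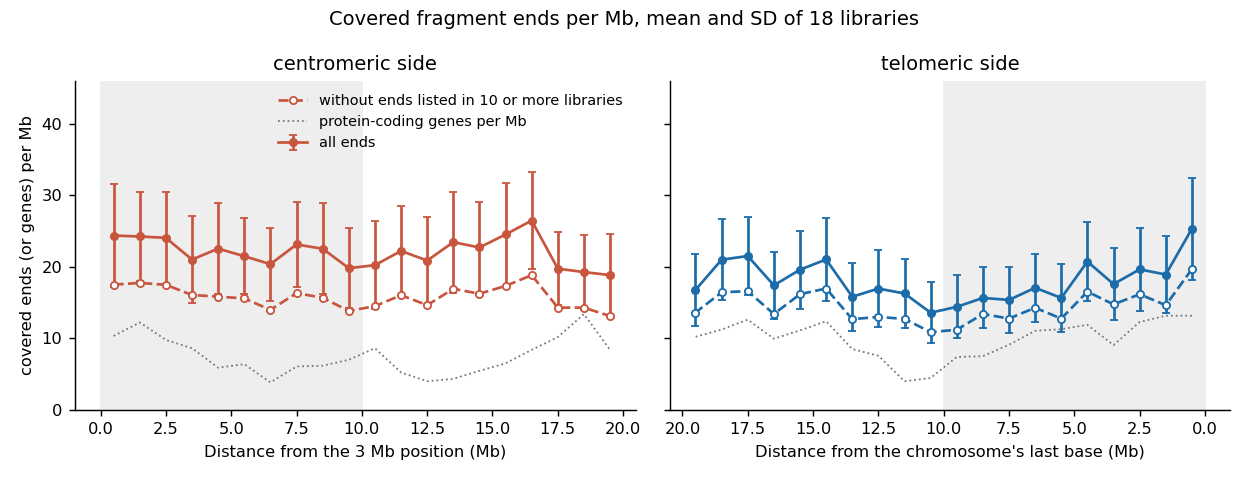
Covered fragment ends per Mb in 1 Mb steps from the start of the centromeric window (left) and from the last base of the chromosome (right), summed over 18 autosomes; shading marks the 10 Mb windows. Filled points are means with SD of 18 libraries, open points leave out ends listed in 10 or more libraries, and the dotted line is the number of protein-coding genes per Mb; the outermost telomeric megabase is the densest of its window at 25.3.

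Telomeric windows resembled each other more than centromeric ones did. Their mean covered ends per Mb ranged from 12.6 (chromosome 1) to 22.9 (chromosome 5), a ratio of 1.82, against 13.1 (chromosome 14) to 34.6 (chromosome 9), a ratio of 2.63, for centromeric windows. By reads the telomeric windows ranged from 0.303% (chromosome 1) to 0.819% (chromosome 11) of reads outside chromosome 12, and the centromeric windows from 0.161% (chromosome 14) to 1.23% (chromosome 19). The densest telomeric windows in covered ends were on chromosomes 5, 17 and 15, and the sparsest on chromosomes 1, 19 and 7. The densest centromeric windows were on chromosomes 9, 3 and 19, and the sparsest on chromosomes 14, 17 and 16.

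The centromeric window was the denser one on 12 of 18 chromosomes and the telomeric window on 6. On chromosomes 1, 3, 6, 7, 9 and 19 the centromeric window was denser in all 18 libraries. The widest gap was on chromosome 1, with 31.5 ± 9.02 centromeric and 12.6 ± 3.89 telomeric covered ends per Mb (SD, n = 18; log2 ratio -1.34 ± 0.21), followed by chromosome 19 with 32.9 ± 11.1 and 14.4 ± 4.38 (log2 ratio -1.16 ± 0.37). Chromosomes 17 and 14 had the reverse order in all 18 libraries. On chromosome 17 the telomeric window held 21.9 ± 6.61 and the centromeric window 13.3 ± 3.87 (log2 ratio 0.71 ± 0.25), and on chromosome 14 they held 17.9 ± 5.65 and 13.1 ± 3.99 (log2 ratio 0.44 ± 0.14). Without ends listed in 10 or more libraries the telomeric window was the denser one on 10 of 18 chromosomes.

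Reads did not follow covered ends chromosome by chromosome. The telomeric window had more reads in all 12 libraries on 9 chromosomes and the centromeric one on 5, which were 1, 4, 7, 11 and 19. On chromosome 6 covered ends were denser at the centromeric side in 18 of 18 libraries, yet the log2 ratio of telomeric over centromeric reads was 0.87, above 0 in 12 of 12 libraries. On chromosome 9, also denser in covered ends at the centromeric side in 18 of 18 libraries, it was 0.20, above 0 in 10 of 12.

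**Figure D3:**
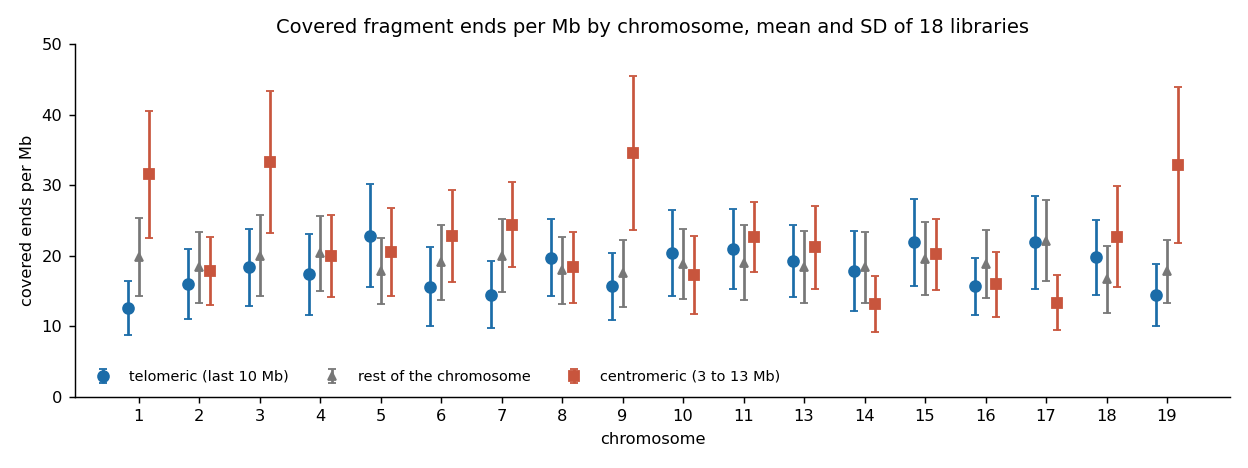
Covered fragment ends per Mb in the telomeric window, the centromeric window and the rest of each of 18 autosomes, mean and SD of 18 libraries. Centromeric windows of chromosomes 1, 3, 9 and 19 lie above 31 per Mb, while telomeric windows stay between 12.6 and 22.9.

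Single ends dominated some windows. At chr18:88626586-88626609, 26551 bp from Gm32489, 1 telomeric end took 59.3% of the reads of its window, with 0.304% to 0.613% of reads outside chromosome 12 in the 12 libraries and a median of 0.432%. At chr4:9499998-9500021, inside Asph, which encodes an aspartyl/asparaginyl hydroxylase, 1 centromeric end took 55.7% of its window (0.339% to 0.601%, median 0.472%). The other centromeric ends that led by libraries and reads were at chr7:7219602-7219625 inside the vomeronasal receptor gene Vmn2r29 (44.9% of its window), at chr1:6513200-6513223 inside St18, which encodes a zinc finger factor (39.7%), and at chr19:9509719-9509742 between genes (18.9%). The other telomeric ones were at chr6:141650114-141650137 inside the liver transporter gene Slco1b2 (29.5%), at chr11:118217878-118217901 inside Cyth1, a guanine nucleotide exchange factor for Arf proteins (18.9%), and at chr7:140075368-140075391 inside Caly (13.6%). All 8 were listed in 18 libraries. Several of the genes named here are not known for expression in B cells, and whether copies of these 24 bases exist elsewhere in the genome was not tested.

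After 2 days with LPS and IL4, reads moved toward the telomeric windows and away from the centromeric ones, and the centromeric fall rested on 1 chromosome. In WT cells the telomeric share of reads was 8.07%, 8.50% and 8.18% at rest and 9.07%, 9.20% and 9.35% after LPS + IL4. In mutant cells it was 8.49%, 8.28% and 8.57% at rest and 8.55%, 9.28% and 8.87% after. The groups did not overlap in WT and overlapped in mutant cells, through mutant LPS + IL4 replicate 1. Over both genotypes the log2 share rose by 0.12 (exact stratified permutation p = 0.01, adjusted 0.012 over 6 measures). The rise was neither even within these windows nor confined to them. The megabase 4 to 5 Mb from the last base went from 5.16% ± 0.51 of reads per 100 Mb at rest to 4.99% ± 0.49 (SD, n = 6 each). Those at 11 to 12 and 13 to 14 Mb, outside the window, went from 3.15% ± 0.59 to 4.07% ± 0.24 and from 2.93% ± 0.28 to 4.06% ± 0.52. The means at 14 to 15 and 17 to 18 Mb fell.

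The centromeric share of reads was 8.57%, 8.90% and 8.58% in WT resting libraries and 7.79%, 7.94% and 8.10% in WT LPS + IL4 libraries. In mutant libraries it was 8.62%, 8.95% and 8.63% at rest and 7.98%, 8.02% and 8.15% after. The groups did not overlap in either genotype, and the log2 share fell by 0.12 (exact stratified permutation p = 0.005, adjusted 0.012; 0.005 is the smallest p this design gives). Telomeric over centromeric reads thus rose by 0.24 on the log2 scale (0.29 in WT and 0.19 in mutant cells; exact stratified permutation p = 0.005, adjusted 0.012). In covered ends the same 3 measures changed by 0.06, -0.05 and 0.11 (exact stratified permutation, adjusted p = 0.012, 0.03 and 0.012). Each of the 12 libraries was left out in turn, WT LPS + IL4 replicate 2 included. The 3 changes in reads then ranged over 0.10 to 0.13, -0.13 to -0.11 and 0.22 to 0.25, each still past 0.05.

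Leaving out chromosome 19, an alternative added after the values were seen, turned the centromeric change around: the remaining 17 windows rose by 0.05 in reads (exact stratified permutation p = 0.01) and by 0.03 in covered ends (exact stratified permutation p = 0.045). Their shares were 6.92% ± 0.18 in WT resting and 7.14% ± 0.08 in WT LPS + IL4 libraries, and 7.09% ± 0.04 and 7.36% ± 0.11 in mutant libraries (SD, n = 3 each). Leaving out any 1 of the other 17 chromosomes left a centromeric fall of -0.11 to -0.16 in WT and -0.10 to -0.15 in mutant cells. The telomeric rise did not rest on 1 chromosome: without each of 18 in turn it was 0.12 to 0.24 in WT, with no overlap between the groups, and 0.04 to 0.14 in mutant cells, where the groups overlapped in 11 of 18 cases. Without chromosome 19 the telomeric over centromeric change was 0.08 in reads (exact stratified permutation p = 0.03) and 0.03 in covered ends (exact stratified permutation p = 0.245). By genotype the change in reads was 0.14 in WT, with no overlap between the groups, and 0.02 in mutant cells, where the groups overlapped. The share of reads at ends listed in all 18 libraries moved with the condition too, from 19.1% to 20.1% at rest to 20.9% to 23.6% after LPS + IL4, and its part in these changes was not tested. Without ends listed in 10 or more libraries the telomeric and centromeric changes in reads were 0.23 and -0.28 in WT and 0.15 and -0.21 in mutant cells.

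Window by window, the reads of 256 windows of about 10 Mb were compared with edgeR's quasi-likelihood test, with Benjamini-Hochberg adjustment. A window that did not pass is not shown to be unchanged. In WT cells 5 of 18 telomeric windows rose and 1 fell, and 0 of 18 centromeric windows rose and 2 fell, where 10.5% of all 256 windows rose and 8.98% fell. In mutant cells 3 telomeric windows rose and 2 fell, and 1 centromeric window rose and 2 fell, where 7.03% of all windows rose and 10.9% fell. The median log2 change in WT cells was 0.23 over telomeric and 0.03 over centromeric windows, beside 0.14 over all windows. In mutant cells it was 0.05 and 0.16, beside 0.14. Over the 26 windows of the sex chromosomes the median was 0.29 in WT and 0.30 in mutant cells. Of the windows called at the ends, 2 telomeric (chromosomes 14 and 15) and 2 centromeric (chromosomes 17 and 19) passed in both genotypes, each time in the same direction.

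The centromeric window of chromosome 19 (chr19:3000001-13000000) had the largest fall of the 36 end windows. It held 1.82%, 1.79% and 1.68% of reads outside chromosome 12 in WT resting libraries and 0.720%, 0.826% and 0.867% in WT LPS + IL4 libraries. In mutant libraries it held 1.48%, 1.89% and 1.56% at rest and 0.679%, 0.732% and 0.664% after. All 6 resting libraries lay above all 6 LPS + IL4 libraries. The log2 change was -1.13 ± 0.13 in WT (SE; edgeR adjusted p = 3.51e-08) and -1.25 ± 0.13 in mutant cells (SE; edgeR adjusted p = 3.2e-09), and it passed under the 16 alternatives run for this window in each genotype, where the log2 change ranged from -1.65 to -0.76 in WT and from -1.84 to -0.91 in mutant cells. The window is the most gene-dense of the 36, with 324 protein-coding genes, against a median of 49 for centromeric and 114 for telomeric windows.

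Within it the fall was spread over most of its length. The megabase from 6000001 to 7000000 held 0.191% of reads at rest and 0.0256% after LPS + IL4 (means of 6 libraries), and the one from 3000001 to 4000000 held 0.152% and 0.0322%. Resting and LPS + IL4 libraries did not overlap in 4 of the 10 megabases. The megabase from 9000001 to 10000000 did not follow, at 0.338% and 0.343%. It contains the end at chr19:9509719-9509742 described above, whose own share was 0.201% ± 0.0537 at rest and 0.224% ± 0.0360 after (SD, n = 6 each), and it has 8 protein-coding genes, the fewest of the 10.

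**Figure D4:**
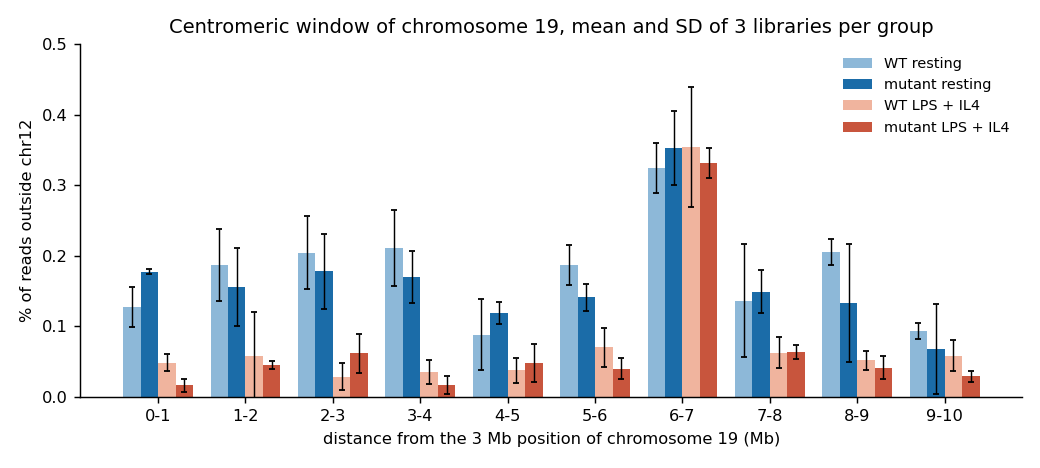
Share of reads outside chromosome 12 in each megabase of the centromeric window of chromosome 19, by distance from its start; bars are means and SD of 3 libraries per group. The group means are lower after LPS + IL4 in every megabase in mutant cells and in every megabase but the seventh in WT. The seventh went from 0.325% to 0.354% in WT and from 0.352% to 0.331% in mutant cells.

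The other windows that moved in both genotypes did so by less. The centromeric window of chromosome 17 held 0.320%, 0.420% and 0.413% of reads in WT resting libraries and 0.285%, 0.184% and 0.246% after LPS + IL4 (log2 change -0.69 ± 0.19, SE; edgeR adjusted p = 0.00857). In mutant cells it went from 0.363%, 0.368% and 0.323% to 0.199%, 0.206% and 0.226% (-0.74 ± 0.19, SE; edgeR adjusted p = 0.00701). The groups did not overlap in either genotype. The WT call was lost without WT LPS + IL4 replicate 2 (edgeR adjusted p = 0.0634) and in covered ends, where the change was -0.22 (limma adjusted p = 0.167). The mutant call was lost without the most read 1% of ends (edgeR adjusted p = 0.0537).

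The telomeric window of chromosome 15 held 0.952%, 1.05% and 0.863% in WT resting and 0.588%, 0.663% and 0.556% in WT LPS + IL4 libraries (log2 change -0.67 ± 0.14, SE; edgeR adjusted p = 0.00158). In mutant libraries it held 0.815%, 0.735% and 0.804%, then 0.482%, 0.515% and 0.435% (-0.72 ± 0.14, SE; edgeR adjusted p = 0.000642). It is gene-dense, with 193 protein-coding genes, and fell while most telomeric windows had estimates above 0 (13 of 18 in WT, 12 of 18 in mutant cells).

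The telomeric window of chromosome 14 rose, from 0.289%, 0.220% and 0.174% to 0.405%, 0.468% and 0.368% in WT (log2 change 0.86 ± 0.23, SE; edgeR adjusted p = 0.0064) and from 0.297%, 0.157% and 0.365% to 0.542%, 0.398% and 0.449% in mutant cells (0.76 ± 0.23, SE; edgeR adjusted p = 0.0179). It has 36 protein-coding genes. The groups did not overlap in either genotype. The WT call was lost without WT resting replicate 3 (edgeR adjusted p = 0.0731) or WT LPS + IL4 replicate 2 (0.0501), and the mutant call without mutant resting replicate 2 (0.142) or mutant LPS + IL4 replicate 1 (0.094). The mutant call passed in 13 of 16 alternatives, where its log2 change ranged from 0.26 to 1.03.

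Further windows passed in 1 genotype. In WT cells the telomeric windows of chromosomes 1 (log2 change 1.03 ± 0.20, SE), 3 (0.77 ± 0.20), 2 (0.71 ± 0.19) and 18 (0.54 ± 0.15) rose. The window of chromosome 1 held 0.171%, 0.220% and 0.149% at rest and 0.403%, 0.262% and 0.439% after, with edgeR adjusted p = 0.000526. The call on chromosome 2 was lost without WT LPS + IL4 replicate 1 (edgeR adjusted p = 0.0648) and in covered ends (limma adjusted p = 0.097), and that on chromosome 18 was lost without ends listed in 10 or more libraries (edgeR adjusted p = 0.259) and in covered ends (limma adjusted p = 0.527). In mutant cells the same 4 windows had estimates of 0.54, 0.40, 0.51 and 0.04 and did not pass.

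In mutant cells the telomeric windows of chromosomes 7 (log2 change 0.87 ± 0.185, SE) and 4 (0.62 ± 0.18) and the centromeric window of chromosome 6 (0.76 ± 0.21) rose, and the telomeric window of chromosome 11 (-0.50 ± 0.14) fell. The window of chromosome 7 held 0.253%, 0.344% and 0.259% at rest and 0.509%, 0.571% and 0.481% after (edgeR adjusted p = 0.00126). The calls on chromosome 7 and on chromosome 6 were not made in covered ends (limma adjusted p = 0.0735 and 0.143). The call on chromosome 4 was lost without mutant LPS + IL4 replicate 3 (edgeR adjusted p = 0.141) or mutant resting replicate 2 (0.0747), and the one on chromosome 11 without mutant LPS + IL4 replicate 1 (0.0876) or without the most read 1% of ends, where the change was -0.30 (0.219). The call on chromosome 6 was also lost without ends listed in 10 or more libraries (edgeR adjusted p = 0.079) and without the most read 1% (0.0793). With windows of 5 Mb, 0 end windows were called higher and 3 lower in mutant cells. The WT estimates for these 4 were 0.18, 0.35, 0.25 and -0.17. A call in 1 genotype does not show a difference between them: the interaction test called 0% of 256 windows (edgeR; 15 at an unadjusted p under 0.05, 2 of them telomeric and 0 centromeric; DESeq2 called 0).

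**Figure D5:**
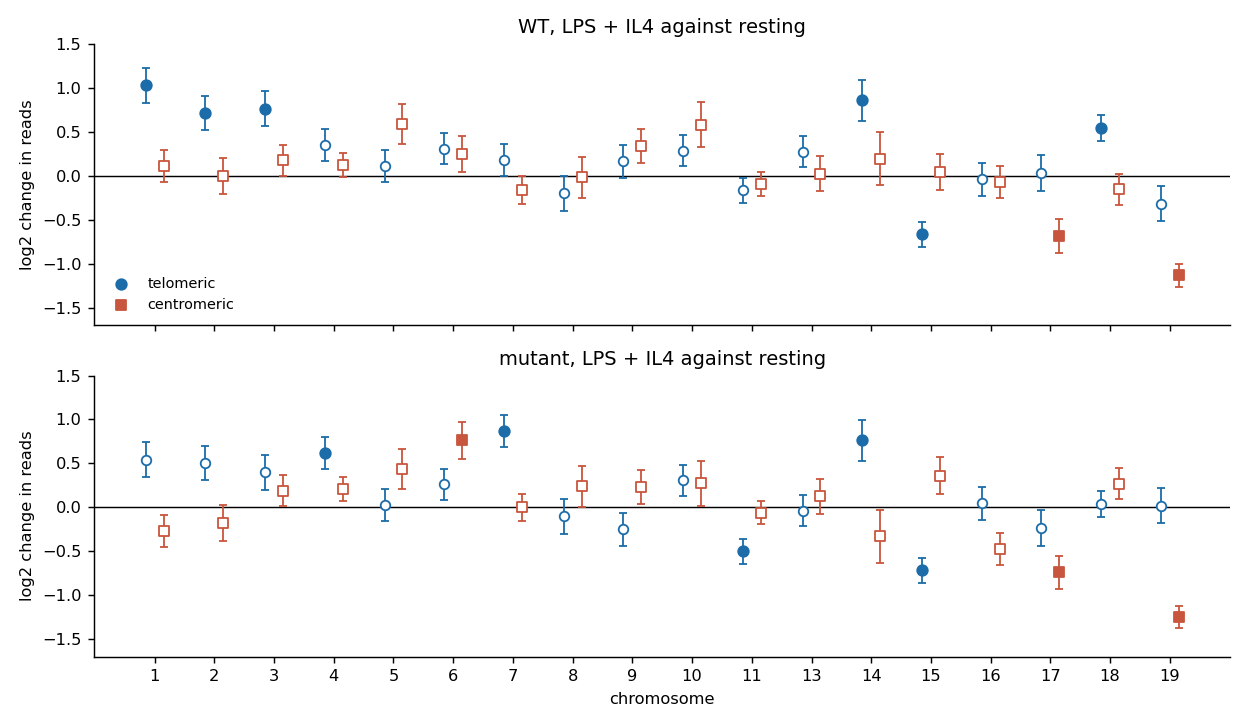
Log2 change in reads after LPS + IL4 for the telomeric and centromeric window of each of 18 autosomes, in WT (top) and mutant cells (bottom), from edgeR; bars are SE. Filled symbols passed at an adjusted p of at most 0.05; the centromeric window of chromosome 19 is lowest in both genotypes, at -1.13 and -1.25.

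Over the end windows together, gene density varied with both read level and change. Telomeric windows had 10.6 protein-coding genes per Mb, centromeric ones 7.63 and the rest 8.61. The 36 windows share libraries and depth and are not independent replicates. Across them genes per Mb correlated with the mean read share at Pearson r = 0.61 (Spearman rho = 0.42). With ends listed in 10 or more libraries left out it was 0.84 (0.74). Without the centromeric window of chromosome 19 these values were 0.43 (0.36) and 0.75 (0.72). In the 17 other centromeric windows alone they were 0.44 (-0.06) and 0.17 (0.43). Across the 36 windows the correlation with covered ends per Mb was 0.09 (-0.19). With the log2 change after LPS + IL4 it was -0.53 (-0.43) in WT and -0.42 (-0.26) in mutant cells, and without the centromeric window of chromosome 19 -0.34 (-0.38) and -0.18 (-0.20). Over all 230 autosomal windows these 2 values were -0.58 (-0.55) and -0.55 (-0.49). The 2 activation comparisons share no libraries, but both share the gene counts.

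The 18 end windows at or under the median gene density of 6.35 genes per Mb had a median log2 change of 0.21 in WT and 0.22 in mutant cells, with 4 and 2 called higher and 0 called lower in each. The 18 above it, which include the centromeric window of chromosome 19, had medians of -0.03 and -0.03, with 1 and 2 called higher and 3 and 4 called lower. Over all 256 windows 10.5% were called higher and 8.98% lower in WT, and 7.03% and 10.9% in mutant cells.

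Of 60 genes with known roles in B cells, all found in the RefSeq table, 3 lay in a telomeric and 7 in a centromeric window. Covered ends within 250 kb of the gene's middle were denser than the window's mean for 8 of the 10. The same share for other genes in these windows was not counted. Around Cr2, which encodes complement receptor 2, they numbered 29.2 ± 10.7 per Mb (SD, n = 18) against 12.6 for the telomeric window of chromosome 1, and were above it in 18 of 18 libraries. Around Fcer2a, the low-affinity IgE receptor CD23, they numbered 29.9 ± 7.62 against 18.4 for the centromeric window of chromosome 8, also in 18 of 18. Around Stat6, the transcription factor that transmits IL4 signals, they numbered 30.3 ± 8.04 against 20.4 for the telomeric window of chromosome 10, in 17 of 18. Around the transcription factor gene Irf8 they numbered 22.7 ± 9.92 against 19.7, above the window in 8 of 18. The genes with a mean below that of their centromeric window were Lyn and Cd5. Around Lyn they numbered 14.8 ± 7.58 against 19.97, above the window in 3 of 18. Around Cd5 they numbered 29.8 ± 17.9 against 32.9, above it in 4 of 18. Without ends listed in 10 or more libraries the density around Ikzf1 also lay below its window, at 15.7 against 16.5, and the rest of the 8 stayed above. These windows are centred on genes while the mean of a 10 Mb window includes gene-poor stretches, so a gene's surplus is a description only.

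The 2 of these genes in the chromosome 19 window lost reads with the window. Around Ms4a1, which encodes the surface protein CD20, there were 1171 ± 354 reads per 1000000 at rest and 357 ± 157 after LPS + IL4 (SD, n = 6 each), with no overlap. Around Cd5, a surface receptor of B1 and T cells, there were 1235 ± 509 and 373 ± 188, again with no overlap. Around the other 8 the resting and LPS + IL4 libraries overlapped. Around Stat6 there were 388 ± 213 reads per 1000000 at rest and 622 ± 323 after. The remaining genes were Xbp1, a plasma cell factor (551 ± 268, then 322 ± 124), Ikzf1, the lymphoid factor Ikaros (401 ± 253, then 140.1 ± 128), Ciita, the activator of MHC class II genes (285 ± 133, then 191 ± 105), and Lyn, a B cell receptor kinase (206 ± 136, then 151 ± 123). The spreads between libraries were wide at these low levels.

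Genotype was compared within each condition. Mutant minus WT, the log2 share of telomeric reads differed by 0.04 at rest and -0.05 after LPS + IL4, and that of centromeric reads by 0.01 and 0.02. The groups overlapped in each case. Over the conditions none of the 6 measures passed (exact stratified permutation p = 0.35 to 0.78, adjusted 0.78 for each). The largest was -0.02, for telomeric over centromeric reads. Without chromosome 19 the centromeric read share alone reached an exact stratified permutation p of 0.015, with a difference of 0.04, unadjusted and chosen after the values were seen.

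The telomeric rise was 0.16 in WT and 0.07 in mutant cells; the test of that difference gave -0.09 (exact permutation p = 0.08), and for telomeric over centromeric reads -0.10 (exact permutation p = 0.075). Neither passed, and without chromosome 19 the latter was -0.11 (exact permutation p = 0.03, unadjusted and chosen after the values were seen). In the windows, genotype at rest and in LPS + IL4 called 0% and 0% of 256 windows (edgeR; 14 and 13 at an unadjusted p under 0.05; DESeq2 called 2 and 0, of which 0 at the chromosome ends). At rest 3 telomeric and 0 centromeric windows had an unadjusted p under 0.05, and after LPS + IL4 it was 1 of each. With 1 library left out at a time, WT LPS + IL4 replicate 2 included, genotype in LPS + IL4 and the interaction also called 0 windows.

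In LPS cultures without IL4 the order of covered ends was that of the other groups. WT LPS libraries had 6.67%, 6.28% and 6.64% telomeric and 8.44%, 8.39% and 8.26% centromeric ends, and mutant LPS libraries had 6.20%, 6.58% and 6.28% and 8.64%, 8.35% and 8.49%. The log2 ratio of telomeric over centromeric ends per Mb was -0.36 ± 0.05 in WT and -0.42 ± 0.07 in mutant cells (SD, n = 3 each), below the -0.22 ± 0.04 and -0.24 ± 0.07 of LPS + IL4 cells and near the -0.35 ± 0.03 and -0.32 ± 0.05 of resting cells. Culture and deposit cannot be told apart in that comparison. Mutant minus WT, the telomeric share differed by -0.04 and the centromeric share by 0.02, with overlap in both. limma on the log2 share of covered ends called 0% of 256 windows between the genotypes in LPS (6 at an unadjusted p under 0.05; edgeR on covered ends called 0), although 15 of 18 telomeric estimates were below 0, with a median of -0.052 beside -0.0031 over all windows.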

How the data were processed

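The 12 resting and LPS + IL4 files hold whole-number read counts per 24-bp fragment end, as deposited. The 6 LPS files list covered ends without counts, as deposited, so only the presence of an end was used there. Per the submitters' processing notes, Bowtie was used for the former, Bowtie2 for the latter and mm10 as the build, with no versions; filters are not given in the sources used here. Members, lists and tests were chosen with earlier results of these data known. Chromosome lengths were entered by hand and checked against the listed ends.

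Shares are of all reads or covered ends outside chromosome 12, and densities are per Mb. A covered end has at least 1 read. Class ratios were tested by exact sign-flip permutation over libraries, and activation and genotype by exact permutation within genotype or condition, two-sided, with Benjamini-Hochberg adjustment over 6 measures. Windows of about 10 Mb (256) were tested with edgeR 4.0.16 (quasi-likelihood, 12 libraries in 1 fit, library size all reads outside chromosome 12, no further normalization, mean of at least 10 reads) and, for LPS, with limma 3.58.1 on log2 shares with a pseudocount of 1; DESeq2 1.42.0 was an alternative. The edgeR step was tested on simulated counts.

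The labels share replicate numbers between groups. Deviations of same-numbered resting and LPS + IL4 libraries correlated at 0.21 to 0.64 in all 6 pairs. Only replicate 2 stood clearly apart, at 0.47 in WT and 0.64 in mutant cells, with other numbers at most -0.33 and -0.38. For WT replicates 1 and 3 and mutant replicate 3, another number came close (0.19, 0.27 and 0.24 against 0.21, 0.30 and 0.27). Mutant replicate 1 correlated more with another number (0.43 against 0.29). Pairing by number was thus not settled. The main tests did not use it, and the number served as a block in an alternative. Same-numbered WT and mutant libraries correlated at 0.21 to 0.60 at rest, 0.35 to 0.65 in LPS + IL4 and -0.36 to 0.44 in LPS. WT resting replicate 3 correlated more with another mutant number (0.36 against 0.21). Windows were to be named where they passed, up to 6 per comparison by size of change; the others that passed (chromosomes 15 and 18, telomeric, in WT; 4 and 11, telomeric, in mutant cells) were added after their values were seen. Counting error alone is not the spread between libraries, and precision is limited by 3 libraries per group.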

Additional observations from a re-analysis of the deposited data

How the results depend on the processing

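In covered ends, telomeric over centromeric stayed below 0 on average in the alternatives run, at -0.13 without ends listed in 10 or more libraries (above 0 in 2 of 18 libraries), -0.18 with at least 2 reads per end, -0.19 with 5 Mb ends and -0.19 with 3 Mb ends, -0.39 per listed end, -0.22 within WT LPS + IL4 and -0.42 within mutant LPS. Centromeric over rest was 0.20 and 0.28 within the same groups. Telomeric over rest in covered ends turned to 0.11 with 5 Mb ends, 0.16 with 3 Mb ends, 0.043 without ends listed in 10 or more libraries and 0.0090 with at least 2 reads per end; it was -0.020 within WT LPS + IL4, -0.024 within mutant LPS + IL4 and -0.14 within mutant LPS. Telomeric over centromeric reads were -0.017 per listed end, and passed the exact permutation test at 0.29 (5 Mb ends), 0.54 (3 Mb ends), 0.23 (mean over chromosomes), 0.41 (without the most read 1% of ends), 0.58 (without ends in 10 or more libraries), 0.40 (without ends in all 18), 0.23 (without chromosome 19) and 0.30 (ends capped at the 99th percentile); they were -0.074 within WT rest and 0.21 within WT LPS + IL4. Telomeric over rest reads were 0.19 within WT rest and 0.37 within WT LPS + IL4. Centromeric over rest reads turned to -0.037 (3 Mb ends), -0.043 (mean over chromosomes), -0.090 (without the top 1%), -0.16 (without ends in 10 or more libraries) and -0.0575 (without ends in all 18), and were 0.0011 with capped ends. The causes were not tested.

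For activation, the telomeric read share rose by 0.077 and 0.15 within 2 library sets that the labels do not name and that were known from earlier work on these files; the second set is mutant replicates 2 and 3 with WT replicate 3, and the first is the others. Without ends in 10 or more libraries the telomeric covered share changed by 0.067 (exact permutation p = 0.06), and with autosomes other than 12 as the total the centromeric covered share changed by -0.036 (exact permutation p = 0.065). Leaving out 1 library gave -0.056 to -0.039 for that share, and the call was lost without mutant rest replicate 1 or mutant LPS + IL4 replicate 3. Without chromosome 19 the centromeric change was 0.0495 in reads and 0.033 in covered ends, the covered telomeric over centromeric change was 0.035, and the genotype difference in centromeric reads was 0.0395.

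Within genotypes, leaving out ends in 10 or more libraries gave changes of 0.23, -0.28 and 0.50 (telomeric, centromeric, telomeric over centromeric reads) in WT and 0.15, -0.21 and 0.36 in mutant cells, 0.17 for the covered ratio in WT, and genotype differences in LPS + IL4 of 0.051 (centromeric) and -0.12 (ratio). Leaving out chromosome 19 gave centromeric changes of 0.0455 and 0.0535 and ratios of 0.14 and 0.024 in reads for WT and mutant cells, and in covered ends 0.011 and 0.055, and 0.066 and 0.0035. It gave a genotype difference in LPS + IL4 of 0.0435 in centromeric reads, and a difference between genotypes in activation of -0.11 for the read ratio (exact permutation p = 0.03).

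Of 256 windows, mutant activation called 46, and 22 to 41 with 1 library left out (22 without mutant LPS + IL4 replicate 1, 30 without replicate 3). With 5 Mb windows 0 end windows were called higher and 3 lower in mutant cells, in place of 4 and 4. DESeq2 called 2 windows for genotype at rest. Of 256 alternative values for the 16 window calls, 234 kept the call and 22 lost it, and 0 reversed. With the replicate number as a block, edgeR called 28 windows higher and 24 lower in WT activation (27 and 23 without it) and 22 and 24 in mutant activation (18 and 28), and 0 for genotype. The 16 calls at the chromosome ends also passed with the block; which of the other windows changed was not counted. The class changes were also past 0.05 under the block (exact permutation p = 0.03125, the smallest for 6 pairs). Density per DpnII fragment end of the genome was not run, since no genome was used here.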
